A study of Xenopus tropicalis with 15 samples.

Results

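LiCl-treated and UV-treated gastrulae were each compared with untreated gastrulae in 1 fit, and the mean of both effects was tested, to find genes whose transcript level moved the same way after both treatments. Genes were used if they had at least 10 counts in 5 or more of the 15 libraries, which kept 14027 of 28206 genes. A gene was called when the mean of both treatment effects had an adjusted p of at most 0.05 and each treatment alone had an unadjusted p of at most 0.05 in the same direction. By this rule 89 genes moved the same way, of which 38 rose and 51 fell. Movement in each treatment alone rests on unadjusted p-values. With the larger of the 2 treatment p-values adjusted, 0 genes passed 0.05 in the same direction in edgeR. In DESeq2, 8 that rose and 13 that fell did.

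The study profiled polyadenylated RNA of whole X. tropicalis embryos of the outbred Nigerian strain at stage 11–11.5, the middle of gastrulation. LiCl-treated embryos had been bathed in 0.3 M LiCl at the 32-cell stage. UV-treated embryos had been irradiated for 2 min within 30 min of fertilisation, and untreated embryos received neither treatment. Each condition had 5 libraries of 10 pooled embryos, which the study describes as independent experiments on clutches that were kept only if most siblings later showed the phenotype.

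LiCl inhibits the kinase GSK3 and so mimics canonical Wnt signalling throughout the early embryo, which turns mesoderm all around the embryo into Spemann organiser, the dorsal signalling centre. UV light on the vegetal pole blocks the cortical rotation that carries dorsal determinants to one side, so that little or no organiser forms. Genes placed by the dorsal-ventral axis are therefore usually pushed in opposite directions by these treatments, and the genes described here are those that were not. Forebrain and eye genes belong to the anterior neural plate, whose formation needs both organiser signals that block BMP and protection from Wnt signals that specify posterior fates.

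Totals ranged from 8412818 to 17737546 counts in LiCl-treated libraries, from 11890416 to 18254396 in UV-treated libraries and from 11002771 to 18455126 in untreated libraries. The treatments could be read from their known targets. All 8 organiser genes tested, such as chrd and gsc, were higher in LiCl-treated than in untreated embryos at an unadjusted p of 0.05, and 6 of them were lower in UV-treated than in untreated embryos. UV replicates 4 and 5 resembled each other more than any other pair of the same condition, with a chi-square per gene of 4.68 against 14.2 to 134 for the other pairs, which is above counting noise, so both were kept. Whether they come from 1 clutch is not given in the sources used here. With both summed into 1 library, an alternative added after seeing the data, 38 genes passed the rule instead of 89. Levels are given below as CPM, counts scaled by effective library size. They come from whole embryos, in which fewer cells of a type and less RNA per cell cannot be told apart.

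Of all genes tested, 0.271% rose and 0.364% fell by the rule, 0.634% in all. Both comparisons use the same untreated libraries. The comparisons differed in their own backgrounds. At an unadjusted p of 0.05, 13.9% of genes rose and 13.2% fell with LiCl, 4.78% rose and 6.71% fell with UV, and 7.7% rose and 9.46% fell in the mean effect. With the fold change required to be at least 2 in each treatment, 20 genes rose (0.143%) and 12 fell (0.0855%). In edgeR the mean effect was also held to the study's threshold, a 2-fold change at an adjusted p of 0.01. It called 3 genes that rose (0.0214%: il17ra, npdc1.1 and Xetrov72042969) and 2 that fell (0.0143%: hesx1 and gas1). Genes that rose were weakly expressed, with a median of 5.60 CPM over the 15 libraries, and 17 of the 38 carried no gene symbol in the files. Genes that fell had a median of 104 CPM and 6 of the 51 had no symbol, beside 12.999 CPM and 24.5% without a symbol over all genes tested. The filter admitted genes that reached 10 counts in treated libraries only, such as cpne7, with at most 1 count in any untreated library. A gene absent from treated libraries needed 10 counts in all 5 untreated libraries. The part of this filter in the difference in level was not tested. The median log2 fold change of the genes that rose was 2.07 with LiCl and 1.103 with UV, and that of the genes that fell was -0.76 with LiCl and -0.48 with UV, where the medians over all genes were 0.02 and -0.02. Adjusted over all genes with edgeR's quasi-likelihood test, LiCl alone passed 0.05 for all 38 genes that rose and for 41 of the 51 that fell. UV alone passed for 1 of the 38, slit3, and for 15 of the 51. Over all 14027 genes tested, LiCl alone passed for 1882 and UV alone for 80. The rule used p-values of these same comparisons, so the counts only describe the genes it chose. Adjusted p-values of single genes below are those of the mean effect unless another is named.

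**Figure D1:**
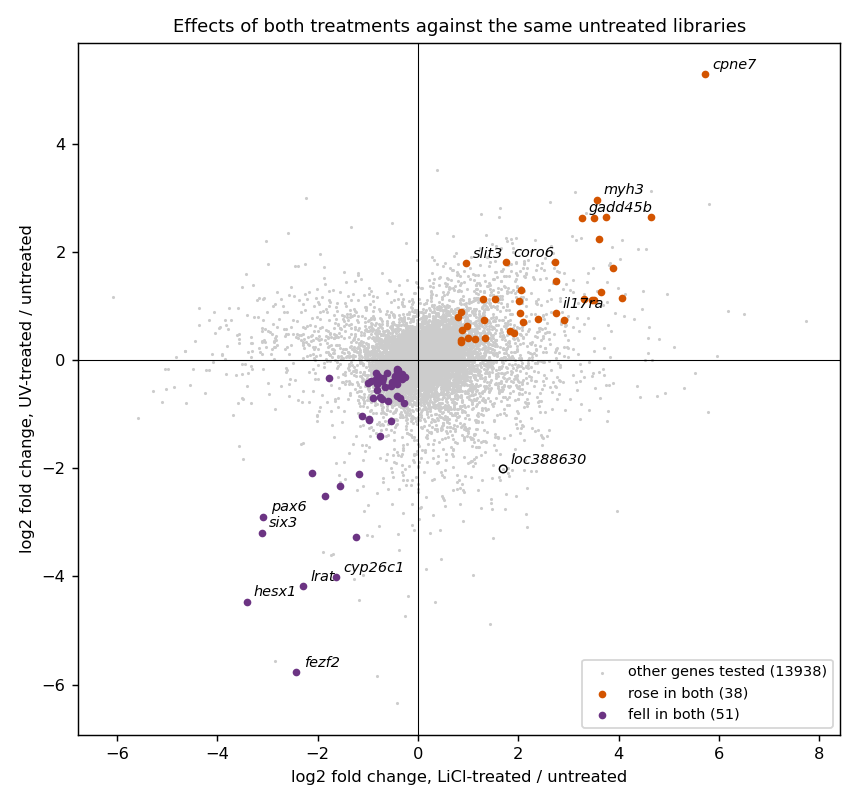
Log2 fold change of LiCl-treated over untreated embryos (x axis) and of UV-treated over untreated embryos (y axis) for each gene tested. The 38 genes that rose in both (orange) lie at upper right and the 51 that fell in both (purple) at lower left, with hesx1, six3, pax6 and fezf2 among the steepest decreases, while loc388630 (open circle) rose with LiCl and fell with UV.

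The rule chose the genes on these same values, so how far their libraries separate describes them and supports nothing. All 10 treated libraries lay above all 5 untreated libraries for 15 of the 38 genes that rose, and below them for 26 of the 51 that fell, where 0.185% of all genes lay above and 0.349% below. Within replicate numbers, both treated libraries lay above the untreated library of that number in all 5 numbers for 34 of the 38 (1.71% of all genes) and below it for 40 of the 51 (2.55%). The remaining genes did so in 4 of the 5 numbers. The numbers were not taken as matched sets, since UV replicate 4 correlated at -0.257 with untreated replicate 4 after condition means were subtracted.

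Homeobox and zinc finger genes of the forebrain and eye field were among the steepest decreases. Of 16 anterior neural and head genes tested, 4 fell in both treatments (hesx1, six3, pax6 and fezf2) and none rose, next to 0.364% of all genes falling. The list was chosen with earlier results of these data known.

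Hesx1 is a homeobox repressor needed for forebrain and pituitary development. Its levels were 4.38, 2.36, 11.9, 6.53 and 6.08 CPM in LiCl-treated replicates 1 to 5 and 0.962, 2.25, 5.02, 4.05 and 2.69 CPM in UV-treated replicates, against 64.5, 59.5, 39.7, 18.1 and 155 CPM in untreated replicates. Every treated library lay below every untreated one, and the untreated libraries themselves spanned a wide range with replicate 5 highest and replicate 4 lowest. The level was 10.6-fold lower with LiCl (log2 fold change -3.41 ± 0.57, SE) and 22.2-fold lower with UV (-4.47 ± 0.60). The mean effect was -3.94 ± 0.44 with an edgeR adjusted p of 0.00144. The gene (Xetrov72011073) lies on scaffold 4 of assembly v7.1 between 137521327 and 137524383 on the minus strand. In edgeR's test it was the only gene that also passed the study's threshold in each treatment separately and in the same direction. The study applied that threshold to DESeq2 results.

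Six3, which specifies forebrain and eye field, had 5.40, 4.49, 2.01, 3.38 and 3.65 CPM in LiCl-treated libraries and 4.47, 3.93, 2.62, 3.69 and 3.04 CPM in UV-treated libraries, against 22.7, 19.9, 9.09, 7.03 and 104 CPM in untreated libraries. The treated libraries did not overlap the untreated ones. The decrease was 8.63-fold with LiCl and 9.14-fold with UV, with a mean log2 fold change of -3.15 ± 0.48 and an edgeR adjusted p of 0.0110. Without untreated replicate 5 the mean log2 fold change was -2.004 (edgeR adjusted p = 0.0177). The difference between the treatments was 0.08 on the log2 scale, with a 95% interval from -1.18 to 1.35. The gene (Xetrov72001585) lies on scaffold 5 between 108726251 and 108732257 on the minus strand.

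Pax6, a master regulator of eye development, had 1 to 19 counts in each treated library. It had 0.306, 0.112, 0.565, 0.0806 and 1.05 CPM in LiCl-treated libraries and 0.550, 0.241, 0.534, 0.786 and 0.434 CPM in UV-treated libraries, against 1.498, 2.73, 1.78, 0.420 and 13.1 CPM in untreated libraries. Untreated replicate 4 lay inside the treated range, and untreated replicate 5 was far above its peers. The mean log2 fold change was -2.99 ± 0.63 (edgeR adjusted p = 0.0390), with -3.08 for LiCl and -2.90 for UV. Without untreated replicate 5 it was -1.70 and no longer passed (edgeR adjusted p = 0.130).

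Fezf2, a zinc finger repressor of the forebrain, was at 2.04, 2.81, 5.03, 1.37 and 0.884 CPM in LiCl-treated libraries and at 0.0687, 0.0802, 0.427, 0.0604 and 0.521 CPM in UV-treated libraries, against 6.53, 7.16, 2.91, 2.62 and 46.0 CPM in untreated libraries. UV left it below the whole untreated range, and LiCl-treated replicates 2 and 3 overlapped the untreated libraries. The log2 fold change was -2.42 ± 0.78 with LiCl and -5.77 ± 0.97 with UV, and the mean effect was -4.10 with an edgeR adjusted p of 0.0140. Without untreated replicate 5 the mean effect was -2.66 (edgeR adjusted p = 0.0345) and the gene no longer passed the rule. Fezf2 fell further with UV, by 3.35 on the log2 scale (95% interval 1.36 to 5.35, edgeR adjusted p = 0.0237).

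**Figure D2:**
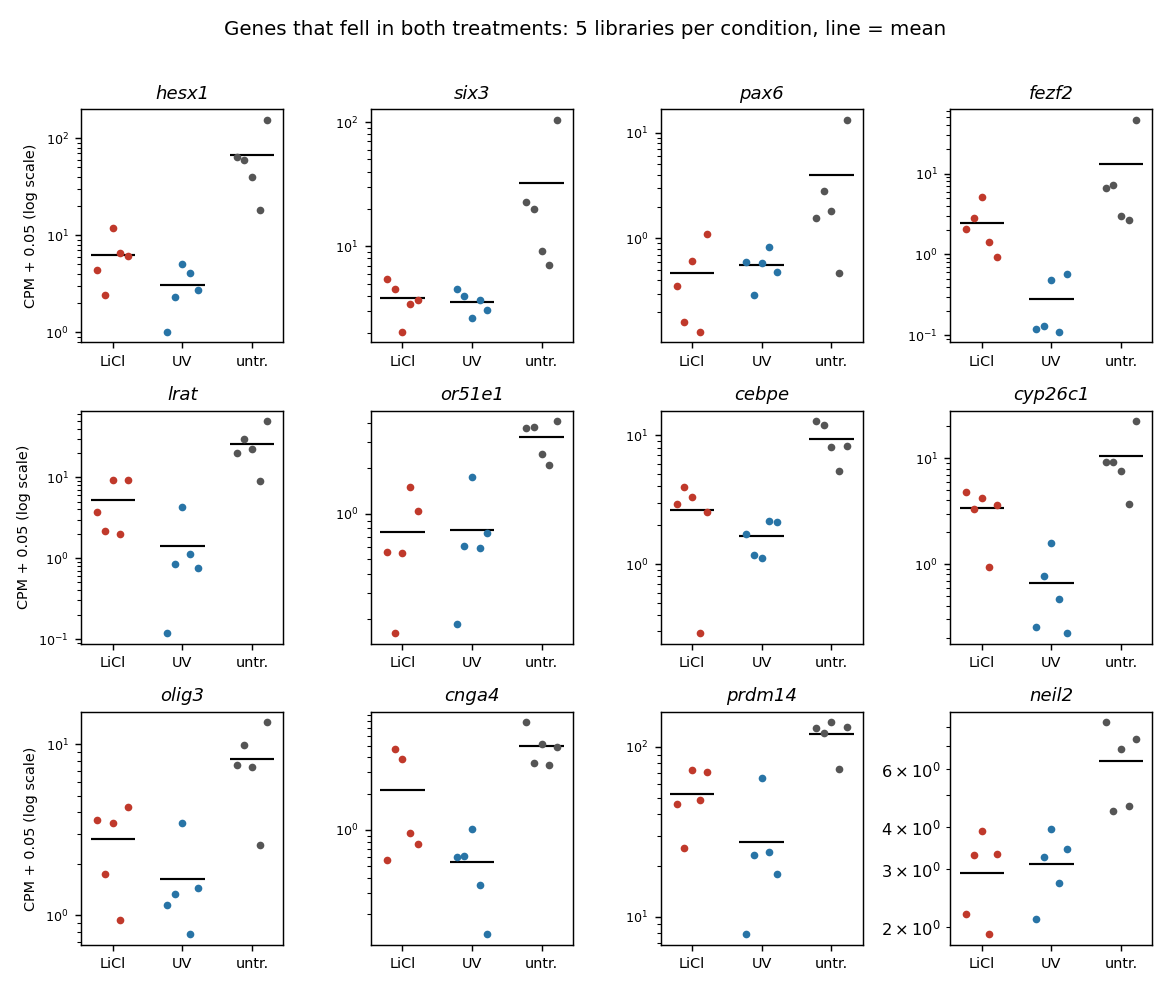
Levels in the 15 libraries of the 12 genes with a symbol that ranked first among those that fell in both treatments, as CPM plus 0.05 on a log scale that differs between panels; points are replicates 1 to 5 from left to right and lines are means. For hesx1 and six3 all 10 treated libraries lie below the 5 untreated libraries, and untreated replicate 5 is the highest point for six3, pax6 and fezf2.

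The other 12 anterior genes tested did not pass the rule. Of all 16, 11 fell with UV at an unadjusted p of 0.05, where 6.71% of all genes fell. LiCl gave 6 that fell and 5 that rose, where 13.2% of all genes fell and 13.9% rose. The list had a median log2 fold change of -0.44 with LiCl and -2.003 with UV. Otx1, a forebrain and midbrain homeobox gene, averaged 212 ± 67.8 CPM in LiCl-treated, 71.7 ± 47.6 CPM in UV-treated and 344 ± 66.8 CPM in untreated embryos (SD, n = 5 each); its unadjusted p with LiCl was 0.0642 in edgeR's test across all genes. Dkkx, a relative of the Wnt antagonist dkk1, averaged 17.8 ± 5.34 CPM in LiCl-treated, 0.982 ± 1.13 CPM in UV-treated and 20.2 ± 4.55 CPM in untreated embryos (SD, n = 5 each). Head mesendoderm genes such as hhex, frzb and dkk1 had positive log2 fold changes with LiCl, of 1.53, 1.92 and 1.72, while with UV they had -1.42, 0.39 and -0.90.

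Among 7 neural plate genes, sox2 alone fell in both treatments by the rule, where 0.364% of all genes fell. With LiCl 4 of the 7 had positive log2 fold changes, with a list median of 0.20. With UV all 7 lay below 0, with a list median of -0.80. Sox2, which maintains neural progenitors, had 402, 261, 478, 331 and 557 CPM in LiCl-treated libraries and 198, 259, 408, 213 and 256 CPM in UV-treated libraries, against 549, 580, 643, 419 and 740 CPM in untreated libraries. LiCl replicates 1, 2 and 4 and all UV-treated libraries lay below the untreated range, and LiCl replicates 3 and 5 overlapped it. The log2 fold change was -0.53 ± 0.22 with LiCl and -1.13 ± 0.23 with UV, and the mean effect stood at the threshold with an edgeR adjusted p of 0.0499. The summed level of the 7 neural plate genes ran from 2112 to 3457 CPM in LiCl-treated, from 1248 to 2280 CPM in UV-treated and from 2587 to 2837 CPM in untreated libraries.

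Lrat and cyp26c1 encode enzymes of retinoid metabolism, for which no list was tested. Lrat esterifies retinol for storage, and cyp26c1 breaks down retinoic acid. Lrat had 3.67, 2.13, 9.17, 1.93 and 9.28 CPM in LiCl-treated libraries and 0.0687, 0.802, 4.22, 1.09 and 0.695 CPM in UV-treated libraries, against 19.8, 29.3, 22.5, 8.87 and 49.3 CPM in untreated libraries. UV-treated libraries lay below all untreated ones, and with LiCl replicates 3 and 5 overlapped the lowest untreated library. Its mean log2 fold change was -3.24 ± 0.56 (edgeR adjusted p = 0.0197). Cyp26c1 had 4.79, 3.26, 4.21, 0.886 and 3.54 CPM in LiCl-treated libraries and 0.206, 0.722, 1.55, 0.423 and 0.174 CPM in UV-treated libraries, against 9.17, 9.24, 7.59, 3.67 and 22.4 CPM in untreated libraries. Here too the overlap was between LiCl-treated libraries and untreated replicate 4. Its mean log2 fold change was -2.83 ± 0.46 (edgeR adjusted p = 0.0140), and it fell 3.11-fold with LiCl and 16.2-fold with UV.

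Further transcriptional regulators fell at least 2-fold in each treatment. Prdm14, a PR domain repressor known in mouse for pluripotent and germ cells, had 46.2, 25.5, 73.4, 48.3 and 70.9 CPM in LiCl-treated libraries and 7.84, 22.9, 65.2, 24.1 and 17.9 CPM in UV-treated libraries, against 129.8, 119.8, 139, 74.0 and 131 CPM in untreated libraries. No treated library reached the untreated range, although UV replicate 3 stood well above the other UV-treated libraries. Olig3, a bHLH factor of neural progenitors, averaged 2.76 ± 1.41, 1.58 ± 1.06 and 8.13 ± 3.97 CPM in LiCl-treated, UV-treated and untreated embryos (SD, n = 5 each). Its LiCl replicates 1, 3 and 5 and UV replicate 3 lay above untreated replicate 4, the lowest untreated library at 2.52 CPM. Cebpe, a C/EBP factor known for granulocytes in mammals, averaged 2.56 ± 1.40, 1.61 ± 0.503 and 9.24 ± 3.11 CPM in LiCl-treated, UV-treated and untreated embryos (SD, n = 5 each), with every treated library below every untreated one. The edgeR adjusted p of the mean effect was 0.0397 for prdm14, 0.0373 for olig3 and 0.0194 for cebpe.

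The remaining steep decreases were in genes of other kinds. Neil2, a DNA glycosylase of base excision repair, fell by almost the same amount with each treatment. Its levels were 2.14, 3.26, 3.83, 1.85 and 3.26 CPM in LiCl-treated libraries and 2.06, 3.21, 3.90, 2.66 and 3.39 CPM in UV-treated libraries, against 8.21, 4.43, 6.84, 4.56 and 7.33 CPM in untreated libraries. The log2 fold change was -1.12 with LiCl and -1.04 with UV, without overlap of treated and untreated libraries (edgeR adjusted p of the mean effect 0.0353). Or51e1, annotated as an olfactory receptor, fell 4.31-fold with LiCl and 4.25-fold with UV, also without overlap (edgeR adjusted p = 0.0384). Cnga4, a subunit of a cyclic nucleotide-gated channel, fell 2.35-fold with LiCl and 9.62-fold with UV (edgeR adjusted p = 0.0420), and LiCl-treated replicates 2 and 3 overlapped the untreated libraries.

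The other 39 genes that fell did so by less than 2-fold in at least 1 treatment, and many were abundant. The following were chosen as examples after their values were seen. Gas1, a Hedgehog co-receptor, averaged 46.3 ± 7.71 CPM in LiCl-treated, 126 ± 12.6 CPM in UV-treated and 158 ± 29.2 CPM in untreated embryos (SD, n = 5 each), so that it fell 3.40-fold with LiCl and 1.25-fold with UV. Nsd1, a histone H3 lysine methyltransferase, averaged 34.5 ± 5.53, 34.7 ± 4.67 and 57.0 ± 9.30 CPM in LiCl-treated, UV-treated and untreated embryos (SD, n = 5 each), with a log2 fold change of -0.72 in both treatments. Kdm2b, a histone demethylase, fell by 0.84 with LiCl and by 0.23 with UV on the log2 scale. The spindle proteins kifc1 and tpx2 had log2 fold changes of -0.84 and -0.46 with LiCl and of -0.35 and -0.29 with UV. Marcks, a substrate of protein kinase C, was at 878, 875, 952, 836 and 923 CPM in LiCl-treated and at 798, 917, 946, 846 and 871 CPM in UV-treated libraries, against 1094, 1163, 1181, 1009 and 1141 CPM in untreated libraries. For marcks a decrease of 1.25-fold with LiCl and 1.28-fold with UV was enough to separate all treated from all untreated libraries. Cytochrome c (cycs) fell likewise, by 0.46 with LiCl and by 0.31 with UV on the log2 scale.

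Receptors of cytokines were among the genes that rose. Il17ra, a receptor chain for interleukin-17, had 9.17, 8.198, 14.5, 8.38 and 5.69 CPM in LiCl-treated libraries and 2.13, 1.93, 3.15, 2.72 and 2.52 CPM in UV-treated libraries, against 1.62, 1.24, 1.12, 1.78 and 1.02 CPM in untreated libraries. All treated libraries lay above all untreated ones, those of LiCl by far. It rose 6.70-fold with LiCl and 1.82-fold with UV. The mean log2 fold change was 1.80 ± 0.25 (edgeR adjusted p = 0.00665), and UV alone had an edgeR adjusted p of 0.201. Lifr, the receptor for leukaemia inhibitory factor, had 5.71, 5.50, 5.34, 9.35 and 6.74 CPM in LiCl-treated libraries and 3.78, 3.05, 2.03, 2.72 and 2.95 CPM in UV-treated libraries, against 1.14, 1.56, 1.41, 2.05 and 1.74 CPM in untreated libraries. UV replicate 3 and untreated replicate 4 met at about the same level, and the other treated libraries were higher. The increase was 4.11-fold with LiCl and 1.83-fold with UV (mean log2 fold change 1.45 ± 0.22, edgeR adjusted p = 0.0110). For UV alone the edgeR adjusted p was 0.150.

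Slit3, a secreted ligand of Robo receptors in axon guidance, was the one named gene with a larger increase in UV-treated embryos that differed between treatments. It was at 0.917, 1.01, 0.879, 0.645 and 1.16 CPM in LiCl-treated libraries and at 1.58, 1.77, 1.23, 1.69 and 2.08 CPM in UV-treated libraries, against 0.360, 0.651, 0.469, 0.525 and 0.363 CPM in untreated libraries. These levels rest on 5 to 28 counts per library. It rose 1.93-fold with LiCl and 3.46-fold with UV (edgeR adjusted p of the mean effect 0.0278). The activin receptor acvr2a, named after its values were seen, averaged 26.5 ± 4.63 CPM in LiCl-treated, 21.1 ± 2.67 CPM in UV-treated and 14.4 ± 1.54 CPM in untreated embryos (SD, n = 5 each), without overlap.

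Genes of nuclear proteins followed. Sp1, a general zinc finger activator, had 17.02, 10.6, 9.17, 15.1 and 10.9 CPM in LiCl-treated libraries and 11.4, 11.3, 13.8, 11.3 and 16.1 CPM in UV-treated libraries, against 6.89, 7.16, 5.999, 6.77 and 7.92 CPM in untreated libraries. No treated library fell into the untreated range. It rose 1.80-fold with LiCl and 1.84-fold with UV (edgeR adjusted p of the mean effect 0.0335), with a difference of -0.03 on the log2 scale (95% interval -0.44 to 0.38). Phf13, a reader of trimethylated histone H3 lysine 4, averaged 120.3 ± 14.2 CPM in LiCl-treated, 119.6 ± 25.6 CPM in UV-treated and 69.0 ± 21.1 CPM in untreated embryos (SD, n = 5 each). Untreated replicate 4, at 105 CPM, reached into its treated range (edgeR adjusted p = 0.0390). The octamer-binding factor pou2f1, named after its values were seen, rose 1.99-fold with LiCl and 1.33-fold with UV, a difference of 0.58 on the log2 scale (95% interval 0.34 to 0.83), and its 10 treated libraries lay above the untreated ones.

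Membrane and lipid proteins were also among the genes that rose. Osbpl8, a lipid transfer protein of the endoplasmic reticulum, had 9.17, 34.5, 20.04, 18.7 and 8.18 CPM in LiCl-treated libraries and 5.29, 5.22, 6.89, 6.95 and 4.60 CPM in UV-treated libraries, against 3.54, 4.17, 4.31, 3.15 and 2.03 CPM in untreated libraries. Its treated libraries did not overlap the untreated ones (edgeR adjusted p of the mean effect 0.0346). Its unadjusted p for UV was 0.0463, close to the limit, and its edgeR adjusted p for UV was 0.426. Tmem45a, a transmembrane protein, rose 2.49-fold with LiCl and 1.68-fold with UV, without overlap (edgeR adjusted p of the mean effect 0.0335, of UV alone 0.195).

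A second set of genes rose steeply but unevenly. Gadd45b, a stress-inducible gene of the growth arrest and DNA damage family, had 5.40, 6.29, 2.32, 0.483 and 4.09 CPM in LiCl-treated libraries and 5.91, 3.37, 0.855, 0.604 and 1.22 CPM in UV-treated libraries, against 0.479, 0.456, 0.187, 0.367 and 0.363 CPM in untreated libraries. LiCl replicate 4 barely exceeded untreated replicate 1, while LiCl replicates 1, 2 and 5 and UV replicates 1 and 2 were several times higher. The mean log2 fold change was 2.95 ± 0.67 (edgeR adjusted p = 0.0499). Fam46a, a poly(A) polymerase, had 30.9, 28.3, 26.8, 28.6 and 18.3 CPM in LiCl-treated libraries and 33.7, 19.4, 7.53, 6.41 and 11.3 CPM in UV-treated libraries, against 7.67, 6.05, 2.72, 7.24 and 7.99 CPM in untreated libraries. UV replicates 3 and 4 lay inside the untreated range (edgeR adjusted p = 0.0483). Fam46a overlaps another gene model on the opposite strand, and the strand setting of the counting is not given in the sources used here, so its counts are uncertain.

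Cpne7, a copine that binds membranes in a calcium-dependent way, was at 3.57, 2.47, 0.440, 0 and 2.71 CPM in LiCl-treated libraries and at 3.44, 2.09, 0.214, 0.181 and 0.868 CPM in UV-treated libraries, against 0.0599, 0, 0, 0.0525 and 0 CPM in untreated libraries. It had at most 1 count in any untreated library, so its mean level was at least 8.90-fold higher with LiCl and at least 6.58-fold higher with UV against a floor of 3 counts per untreated library. LiCl replicate 4, with no count, is the exception among the treated libraries (edgeR adjusted p of the mean effect 0.0499). Myh3, an embryonic myosin heavy chain of skeletal muscle, averaged 1.97 ± 1.27 CPM in LiCl-treated, 1.28 ± 0.724 CPM in UV-treated and 0.154 ± 0.169 CPM in untreated embryos (SD, n = 5 each), where the highest untreated library had 5 counts (edgeR adjusted p = 0.0477). Coro6, an actin-binding coronin, averaged 3.01 ± 1.83, 3.10 ± 1.01 and 0.870 ± 0.418 CPM in LiCl-treated, UV-treated and untreated embryos (SD, n = 5 each), and LiCl replicate 3 overlapped the untreated libraries (edgeR adjusted p = 0.0499).

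**Figure D3:**
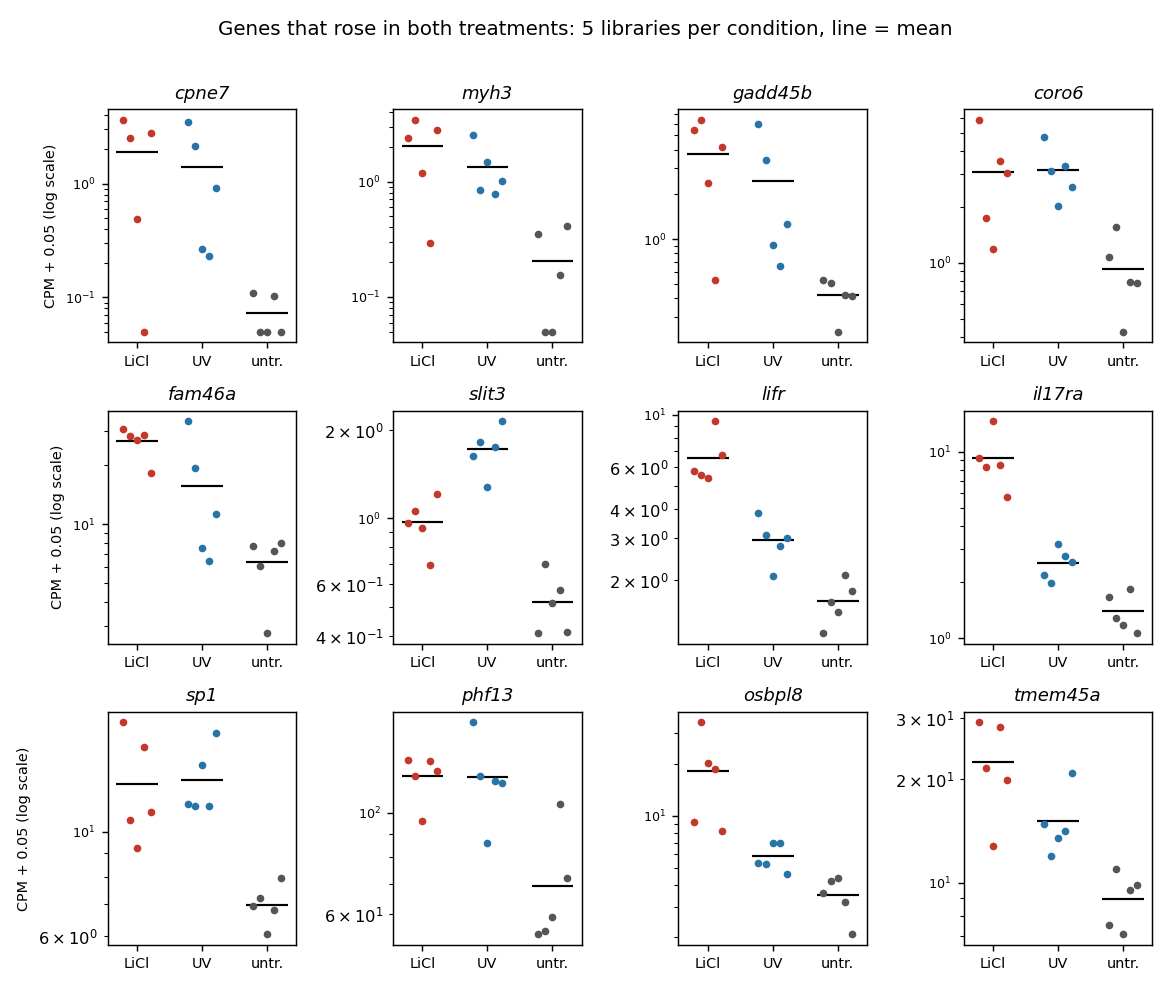
Levels in the 15 libraries of the 12 genes with a symbol that ranked first among those that rose in both treatments, as CPM plus 0.05 on a log scale that differs between panels; points are replicates 1 to 5 from left to right and lines are means. For cpne7 and gadd45b LiCl replicate 4 and UV replicates 3 and 4 are the lowest treated points, whereas for il17ra and sp1 all treated libraries lie above the untreated ones.

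The files give no symbol for 14 of the 20 genes that rose at least 2-fold in each treatment, and these include the most abundant ones. The genes described here were chosen after their values were seen. Xetrov72031924 had 258, 583, 319.9, 159.5 and 193 CPM in LiCl-treated libraries and 71.2, 75.7, 88.9, 27.0 and 29.2 CPM in UV-treated libraries, against 23.6, 37.5, 34.03, 20.04 and 20.8 CPM in untreated libraries. LiCl libraries stood far above, and UV replicates 4 and 5 fell inside the untreated range. Xetrov72042027 averaged 284 ± 222 CPM in LiCl-treated, 71.1 ± 78.9 CPM in UV-treated and 11.3 ± 8.66 CPM in untreated embryos (SD, n = 5 each), and UV replicate 3 lay below the 2 highest untreated libraries. Among the unnamed genes that rose were pairs of neighbours. Xetrov72040518 and Xetrov72040828 lie 9855 bases apart on scaffold 3, and Xetrov72042967 and Xetrov72042969 lie 3870 bases apart on scaffold 327. Xetrov72042969 had the lowest adjusted p among the genes that rose (edgeR, 0.00144), with 66.0, 93.4, 51.7, 52.5 and 50.4 CPM in LiCl-treated libraries and 13.5, 15.0, 9.83, 15.5 and 15.3 CPM in UV-treated libraries, against 5.21, 6.96, 8.06, 11.02 and 10.3 CPM in untreated libraries. Whether neighbours share reads through similar sequence was not tested.

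The same direction did not mean the same size. Of the 38 genes that rose, 35 rose more with LiCl, and for 20 the treatments differed at an edgeR adjusted p of 0.05, 19 of these with the larger change in LiCl-treated embryos. Of the 51 that fell, 31 fell more with LiCl and 14 differed, 10 of these with the larger change in LiCl-treated embryos. Over all 14027 genes tested, in either direction, 8785 had the larger change with LiCl. LiCl-treated and UV-treated embryos differed for 2125 of the 14027 (15.1%), 1680 of these with the larger change in LiCl-treated embryos. Of the 12 genes that fell at least 2-fold in each treatment, 9 fell more with UV. A rule that asks for the same direction therefore retained genes on which LiCl and UV differed, so the 89 genes are not free of differences between dorsalised and ventralised embryos.

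In edgeR, the only gene besides hesx1 to pass the study's threshold in each treatment was loc388630, and it moved in opposite directions. The study, which applied its threshold with DESeq2, names this gene tiki1, a Wnt regulator. It was at 107, 128, 110.1, 75.4 and 82.6 CPM in LiCl-treated libraries and at 5.02, 9.87, 11.1, 5.62 and 6.69 CPM in UV-treated libraries, against 26.1, 32.5, 31.2, 29.3 and 35.7 CPM in untreated libraries. The log2 fold change was 1.70 with LiCl and -2.01 with UV, and the mean of both effects was -0.16 (edgeR adjusted p = 0.745). The conditions did not overlap.

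Lists of stress, repair and housekeeping genes had no or few members that passed. None of 15 p53 response genes was called by edgeR without a replicate block, where 0.271% of all genes rose and 0.364% fell. At these shares, a short list without a called gene says little. At an unadjusted p of 0.05, 8 were higher and 1 lower with LiCl, where 13.9% of all genes were higher, and 6 were higher and 1 lower with UV, where 4.78% were higher. The list's median log2 fold change was 0.55 with LiCl and 0.40 with UV. Mdm2, the ubiquitin ligase that restrains p53, was at 837, 702, 484, 153 and 693 CPM in LiCl-treated libraries and at 709, 573, 177, 237 and 332 CPM in UV-treated libraries, against 222, 170.1, 136, 184 and 213 CPM in untreated libraries. LiCl replicate 4 and UV replicate 3 lay inside the untreated range and the other 8 treated libraries above it (edgeR adjusted p of the mean effect 0.0821). Ccng1, a cyclin induced by p53, showed the same exceptions, with 639, 548, 441, 104 and 628 CPM in LiCl-treated libraries and 700.2, 696, 130.2, 368 and 401 CPM in UV-treated libraries, against 211, 123, 51.5, 179.5 and 227 CPM in untreated libraries (edgeR adjusted p = 0.101). Without the libraries of replicate number 4, an alternative added after seeing the data, 4 of the 15 rose (aen, ccng1, mdm2 and sesn1), where 1.77% of all genes rose. DESeq2 on all libraries called these and plk2, where 1.58% of all genes rose.

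None of 75 ribosomal protein genes passed the rule in edgeR on all libraries without a replicate block. In that fit 0.271% of all genes rose and 0.364% fell. At an unadjusted p of 0.05, 47 were lower with LiCl, where 13.2% of all genes were lower, and 3 with UV, where 6.71% were lower. Their median log2 fold change was -0.42 with LiCl and -0.22 with UV, and 75 and 71 of the 75 lay below 0, with almost the same values under DESeq2 size factors (-0.41 and -0.21). Without the libraries of replicate number 4, 29 of the 75 fell by the rule, where 1.8% of all genes fell. DESeq2 on all libraries called 2 that fell, where 1.32% of all genes fell. Further lists had no member that passed in edgeR on all libraries without a replicate block, where 0.271% of all genes rose and 0.364% fell. These were chaperones, the unfolded protein response, oxidative stress, nucleotide excision repair, apoptosis and immediate early genes. The others were the cell cycle, cholesterol synthesis, glycolysis, maternal transcripts, somites and hox genes. Among them the hox genes of paralog groups 5 to 13 had medians of -3.26 with LiCl and 0.01 with UV. DESeq2 called at most 2 members of any of these lists, where 1.58% of all genes rose and 1.32% fell. Of the 2 maternal genes it called, btg4 and npm2, 1 rose and 1 fell. With the libraries of replicate number 4 left out, klf4 of 15 immediate early genes rose in edgeR. So did btg4 and zp3 of 21 maternal genes, where 1.77% of all genes rose. In that fit myod1 and pcdh8.2 of 14 somite genes fell, where 1.8% of all genes fell. Hoxb3 of 10 genes of hox groups 1 to 4 and hoxb9 of 14 of groups 5 to 13 also fell.

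Markers of other tissues also differed between conditions in whole embryos. The summed level of 9 epidermal genes ran from 2404 to 4227 CPM in LiCl-treated, from 9972 to 17330.1 CPM in UV-treated and from 7534 to 11839 CPM in untreated libraries. That of 6 blood and endothelial genes ran from 235 to 552 CPM in LiCl-treated, from 1174 to 2298 CPM in UV-treated and from 589 to 1834 CPM in untreated libraries. Of these 6 genes, 5 had positive log2 fold changes with LiCl and 1 a negative one, with a list median of 0.79. With UV the list median was 0.01, with 3 genes above 0 and 3 below. The blood and endothelial sum therefore did not move with most of its members under LiCl. No member of these lists, nor of the endoderm, ventral mesoderm, ciliated cell or germ plasm lists, moved the same way by the rule. Of all genes, 0.271% rose and 0.364% fell by it. DESeq2 on all libraries called mix1 of 8 endoderm genes and grip2 of 6 germ plasm genes as higher, where 1.58% of all genes rose. With the libraries of replicate number 4 left out, 2 of the 8 endoderm genes (mix1 and mixer) passed as higher in edgeR. So did 3 of the 6 germ plasm genes (dnd1, grip2 and nanos1), where 1.77% of all genes rose. The part of tissue composition in the changes described was not tested.

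**Figure D4:**
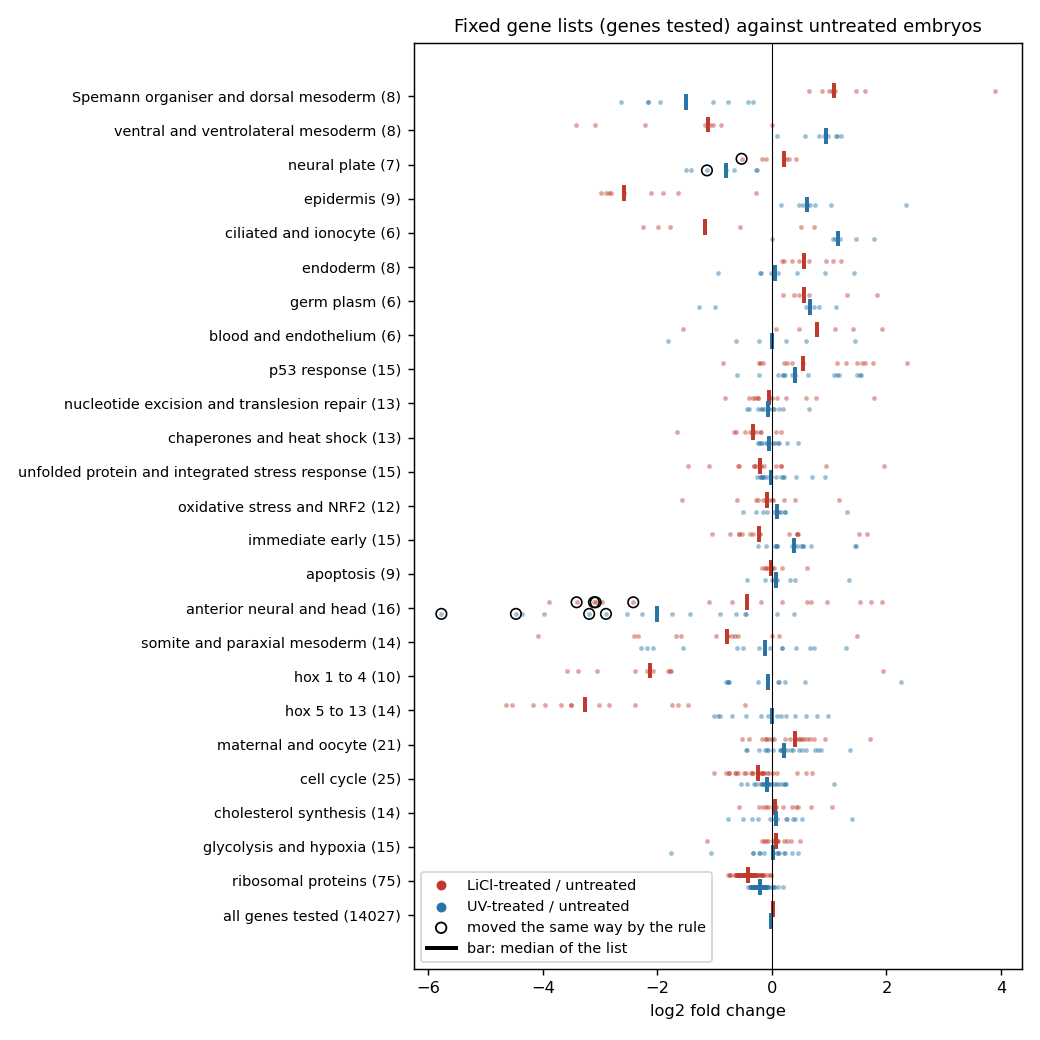
Log2 fold changes of the genes of each list (number tested in brackets), with LiCl-treated over untreated embryos in red and UV-treated over untreated embryos in blue; short bars mark the median and black rings the genes that moved the same way by the rule. Rings occur for the anterior neural and head list (4 of 16) and for sox2 in the neural plate list, while the organiser, ventral mesoderm and epidermis medians lie on opposite sides of 0.

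How many genes passed depended on single libraries. The count of 89 became 362 without untreated replicate 4 and 180 without LiCl replicate 4. It became 26 or 43 without LiCl replicate 1 or 2, and 24, 42, 55 or 38 without UV replicate 1, 2, 4 or 5. Without untreated replicate 1, 2, 3 or 5 it was 14, 17, 18 or 55. Without all 3 libraries of replicate number 4 it was 501, of which 78 were among the 89. In each of the 15 fits that left out 1 library, 10 genes passed: hesx1, six3, cyp26c1, lifr, il17ra, npdc1.1, pou2f1, Xetrov72040518, Xetrov72042967 and Xetrov72042969. Among the genes named above, cpne7, myh3, coro6, pax6, sox2, or51e1, cnga4 and tpx2 passed in 4 of the 15 fits and osbpl8 in 3. Fam46a, phf13, olig3, prdm14 and neil2 passed in 5, gadd45b in 6, tmem45a in 7, sp1 in 8 and slit3 and acvr2a in 9. Lrat and cebpe passed in 13, failing without untreated replicate 1 or 2.

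**Figure D5:**
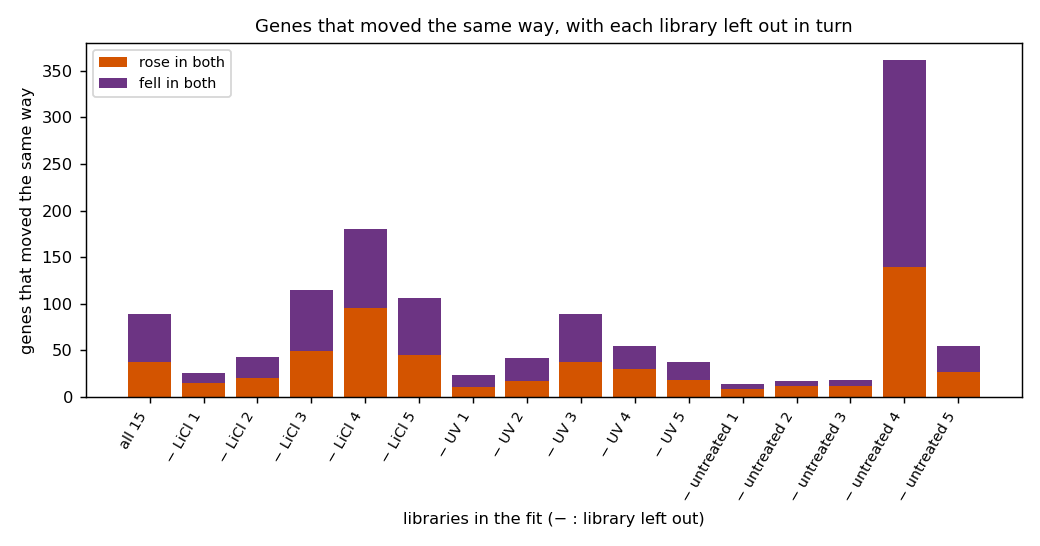
Number of genes that rose (orange) or fell (purple) in both treatments with all 15 libraries and with each library left out in turn (x axis). The bar for all libraries stands at 89, the lowest bar (without untreated replicate 1) at 14 and the highest (without untreated replicate 4) at 362.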

How the data were processed

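The authors deposited whole-number counts of reads per gene for 15 poly(A) libraries, with no normalisation. Paired-end reads of 50 bases had been aligned with TopHat2 to gene models v7.2 on assembly v7.1, with no search for new junctions, and HTSeq counted them in intersection-nonempty mode. The submitters' processing notes also name CASAVA 1.8.2, DESeq2 and TopHat2 versions 2.1.1 and 2.0.10. The strand setting is not given in the sources used here. The authors' gene models, start and end positions of exons, gave locations and overlaps. Gene names are those in the files.

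Columns were matched to samples by title. Genes with at least 10 counts in 5 or more libraries were fitted in R 4.3.3 with edgeR 4.0.16 (TMM, robust quasi-likelihood, condition as the only term), with contrasts for LiCl, UV, their mean and LiCl minus UV. p-values were adjusted by Benjamini-Hochberg over all 14027 genes. SE is the log2 fold change divided by the square root of F. The procedure was tested on simulated counts with known changes of the same size in both treatments. Genes moved by LiCl alone were not simulated, so how often the rule calls such genes was not tested. Named genes were up to 12 per direction with a symbol and a mean of at least 1 CPM, ranked by the smaller of the treatment effects, those past 2-fold in each first, plus list members that passed and genes past the study's threshold in each treatment. Members and lists were chosen with earlier results of these data known. Alternatives were another scaling, filters, DESeq2 1.42.0, pooling rules, stricter thresholds, a replicate block and leaving out libraries. Since PCR duplicates are among the reads, a floor reflects counting error alone. Replicates are described as independent experiments. No sequence is shown, since no genome was used here.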

Additional observations from a re-analysis of the deposited data

Results flagged for a closer look

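Among 78 groups of 5 libraries (26 named genes in 3 conditions), 6 held a library far from its peers. The limit used gives about 1 in 20 for independent, normally distributed values, which was not tested for these CPM. The 6 came from untreated replicate 5 and UV-treated replicate 3 alone, so they are not independent. In untreated replicate 5, six3 stood at 104 CPM with the next library at 22.7 CPM, pax6 at 13.1 CPM with the next at 2.73 CPM and fezf2 at 46.0 CPM with the next at 7.16 CPM. In UV-treated replicate 3, lrat stood at 4.22 CPM with the next at 1.09 CPM, olig3 at 3.42 CPM with the next at 1.39 CPM and prdm14 at 65.2 CPM with the next at 24.1 CPM.

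For 8 named genes the effect of LiCl differed from that of UV in edgeR's test across all genes. The difference, LiCl minus UV on the log2 scale, was 1.17 for lifr (adjusted p = 0.00365), 1.88 for il17ra (0.000251) and 1.64 for osbpl8 (0.00453), which rose more with LiCl, and -0.84 for slit3 (0.0466), which rose more with UV. It was 3.35 for fezf2 (0.0237), 2.37 for cyp26c1 (0.0147) and 2.03 for cnga4 (0.0408), which fell more with UV. For loc388630, which moved in opposite directions, it was 3.71 (7.62e-07).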

How the results depend on the processing

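The count of 89 genes was 72 under DESeq2 size factors and 90 with filterByExpr. It was 53 with no filter, 406 with DESeq2's Wald test (87 of the 89 among them), 2 (six3 and hesx1) with 1 treated group of 10 libraries, whose spread then holds the difference between treatments, and 5 at an adjusted p of 0.01. Adjusting the larger of both treatment p-values gave 0 genes in edgeR, where 251 rose and 236 fell unadjusted, and 21 genes in DESeq2. Under alternatives added after seeing the data it was 501 without the libraries of number 4 and 38 with UV replicates 4 and 5 summed. The 32 genes past 2-fold in each treatment became 137 with DESeq2, 2 with 1 treated group, 1 at an adjusted p of 0.01, 0 with the larger p-value, 152 without number 4 and 13 with the UV libraries summed. The 5 genes past 2-fold at an adjusted p of 0.01 for the mean effect became 163 with DESeq2, 0 with 1 treated group and 3 with the UV libraries summed. Leaving out 1 library each gave 14 to 362, 8 to 103 and 1 to 21 genes for these 3 counts.

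Correlations between libraries were taken on log CPM after the mean of each condition was subtracted for each gene. Same-numbered libraries correlated from 0.340 to 0.732 between LiCl and untreated. Between UV and untreated they correlated from 0.253 to 0.545, except UV replicate 4 at -0.257, so the numbers were not taken as pairs. With a replicate block the 3 counts were 353 (all 89 among them), 88 and 29. With the block 12 list members passed, where 353 of all 14027 genes did, against 5 without it, where 89 did. The 12 included aen and mdm2 of 15 p53 response genes, mix1 of 8 endoderm genes and hoxc3 of 10 genes of hox groups 1 to 4, which rose. They also included otx1 of 16 anterior genes and rpl10a and rpl3 of 75 ribosomal protein genes, which fell. LiCl replicate 3 and UV replicates 1 and 4 correlated best with another number.

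Among the 26 named genes, none that passed reversed. The mean effect of loc388630, which did not pass, was -0.16 and became 0.80 with 1 treated group. Over 598 values of single genes under alternatives, 220 lost the threshold. Hesx1 and six3 kept it in all 23 of these alternatives, with adjusted p up to 0.0103 and 0.0402. The 23 leave out the rule with an adjusted p of 0.01, which six3 missed (edgeR, 0.0110). They also leave out the rule that adjusts the larger p-value, which no gene passed in edgeR. Depth limits genes such as cpne7, myh3 and slit3, which rest on few counts.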
